A study of Caenorhabditis elegans with 4 samples.

Results

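The peaks described here are the 229 ASH-2 binding sites called on the X chromosome of Caenorhabditis elegans, out of 3009 sites in the peak list deposited for the series as a whole, which is called the series list. Every row of that list on the X was taken. The strain was fem-2(b245), and the labels call the worms young adult hermaphrodites that contain a germline, while the growth protocol speaks of gravid adults. All samples carry the fem-2(b245) allele on chromosome III, and the stated temperature is 20 degrees Celsius. Chromatin of whole ground animals was precipitated with affinity-purified rabbit antibodies to ASH-2 in 2 ChIP samples, with 2 input samples as companions. Each ChIP replicate has a peak list of its own, with 27 peaks on the X in replicate 1 and 238 in replicate 2. Values for the input samples were not analysed here. Wild-type worms and separated tissues were not analysed here, so binding in germline and somatic cells cannot be told apart, and the fem-2 allele has no comparison.

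ASH-2 is a core subunit of the COMPASS-type complexes, which methylate lysine 4 of histone H3, a mark found at active promoters. Another subunit of these complexes, DPY-30, also belongs to the dosage compensation complex, which binds both X chromosomes of hermaphrodites and lowers their transcription in somatic cells. In the germline the X is transcribed little over much of its development. The protein encoded by fem-2 is a phosphatase of the sex determination pathway, and worms that lack its activity make oocytes but no sperm. The allele b245 is known as temperature-sensitive, and the labels do not say whether the worms sampled made sperm.

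Positions follow the WormBase WS220 build, in which the X is 17718866 bp long. Each peak has a start, an end and a score that the authors deposited without naming its type. The score was used only to rank peaks within 1 list. The read depth behind the lists is unknown, so a place with no peak may be a place with too few reads. Separate cultures are not stated for the replicates, so their differences may be technical. The sources used here state neither the control used for each call nor how the series list was made. If reads of the ChIP replicates went into the series list, its overlap with them is not independent. Shares carry 95% Wilson intervals, which cover counting error only and treat neighbouring peaks as independent.

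Both outer parts of the X held more sites per Mb than its middle, as on the autosomes, and in the whole series list the contrast was smaller on the X. The leftmost 25% of the chromosome held 87 series peaks, the rightmost 25% held 74 and the middle 50% held 68. The density was 7.68 peaks per Mb in the middle and 18.2 per Mb in the outer parts, a ratio of 0.422 with a counting interval of 0.318 to 0.560. Replicate 2 gave nearly the same ratio, 0.460, with 75 peaks in the middle and 163 outside it. In replicate 1, with 11 peaks in the middle and 16 outside it, the ratio was 0.688. All lists were sparser in the middle, with the least contrast in replicate 1. Counted in base pairs covered, the series ratio was 0.639. The middle held 29.7% of the series peaks on the X, against 16.8% on the autosomes, where 468 peaks lay in the middle and 2311 outside it. The ratio was 0.422 on the X and 0.203 on the autosomes together, and each autosome lay below the X, between 0.133 on chromosome III and 0.297 on chromosome IV. These ratios between chromosomes are given without a test, and their order depended on the peaks counted. Among series peaks that replicate 2 overlapped, 51 lay in the middle and 115 outside it on the X, against 328 and 606 on the autosomes. The contrast was not smaller on the X there. Among those that replicate 1 overlapped, the counts were 23 and 21 on the X and 112 and 494 on the autosomes. On the X this subset thus had slightly more peaks in the middle than outside it, the reverse of the autosomes. Several of these series peaks shared 1 replicate 1 peak, and replicate 1's own peaks, 11 and 16, lay the other way.

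The fullest stretch of 1 Mb ran from 1000001 to 2000000, with 31 series peaks, 4 of replicate 1 and 25 of replicate 2. Next came 16000001 to 17000000, with 26 series peaks, 1 of replicate 1 and 19 of replicate 2. The first Mb had 24, 2 and 24 peaks in the series list, replicate 1 and replicate 2. These 3 stretches, out of 18, held 81 of the X peaks, or 35.4%. The emptiest stretch was 7000001 to 8000000, with 1 series peak, 0 of replicate 1 and 4 of replicate 2. Its left neighbour, from 6000001, had 3 series peaks, 0 of replicate 1 and 8 of replicate 2. In 16 of the 18 stretches every list had at least 1 peak. Replicate 2 leaned to the left, with 102 peaks in the leftmost 25% and 61 in the rightmost 25%, and the stretch from 3000001 to 4000000 shows it, with 18 peaks of replicate 2 against 8 of the series list.

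**Figure D1:**
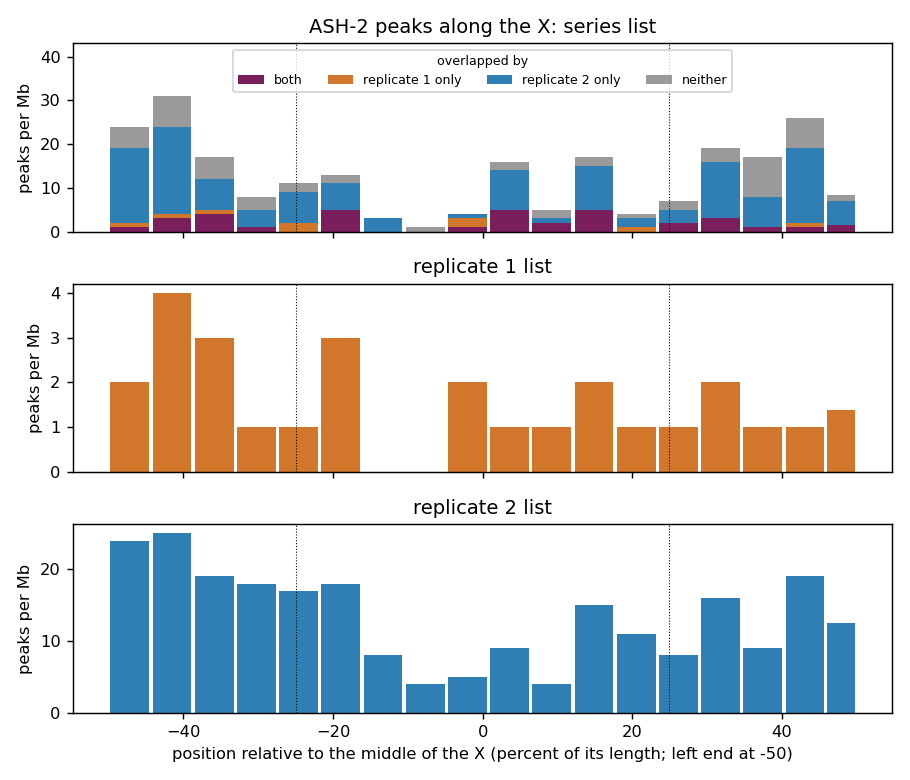
Peaks per Mb in stretches of 1 Mb along the X (the last is shorter), for the series list (top, coloured by which replicate list overlaps each peak), replicate 1 (middle) and replicate 2 (bottom). The horizontal axis gives the distance from the middle of the chromosome in percent of its length, and dotted lines bound the middle 50%, which held 68 series, 11 replicate 1 and 75 replicate 2 peaks.

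The outermost sites lay close to the ends of the chromosome. The first series peak on the X ran from 31030 to 31205, with a score of 2.59, and the last from 17688476 to 17688642, with a score of 2.74. Replicate 2 started at base 2, with a peak of 344 bp and a score of 286.97 that no series peak overlapped, and its last peak ran from 17692488 to 17692729. Replicate 1 reached less far, from a first peak at 142567 to 144038 to a last one at 17310665 to 17312264.

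Long stretches of the X carried no series peak. The 5 longest were looked up in the replicate lists. The longest ran for 1151335 bp, from 7451221 to 8602555, or 6.50% of the chromosome, and neither replicate had a peak inside it. A stretch of 589530 bp, from 12667025 to 13256554, was also empty in both replicates. The stretch from 5915931 to 6605632, of 689702 bp, had 1 replicate 2 peak of 199 bp with a score of 54.09. From 5285200 to 5906236, over 621037 bp, replicate 2 had 2 peaks with scores up to 107.43. The remaining one, 623848 bp from 6827224 to 7451071, was not empty in replicate 2, which had 8 peaks there, up to 1817 bp wide and with scores up to 665.73. Of these 5 stretches, 4 lay between 5285200 and 8602555, and the other was on the right side of the middle. In all, 7 stretches exceeded 500 kb and made up 26.9% of the X. Replicate 1 had 0 peaks in them and replicate 2 had 23. On the autosomes the longest gap between adjacent series peaks ran from 725997 bp on chromosome IV to 2033666 bp on chromosome V, a range that includes the X.

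Between these deserts many peaks came in groups, as on the autosomes. Of the 228 gaps between adjacent X peaks, 90 were under 1 kb (39.5%), against 36.3% over the whole series list, and 51 were over 100 kb. The shortest gap was 51 bp and the median 7118 bp. On the autosomes the share of gaps under 1 kb ran from 32.0% on chromosome IV to 44.0% on chromosome II, so the X lay within their range. The median gap was shorter on each of the 5 autosomes, at 1471 to 5071 bp. When neighbours with a gap of 5 kb or less were joined, the 229 peaks made 120 sites. Of these, 69 were single peaks, 27 were pairs and 24 had 3 or more peaks. The 24 held 106 peaks, or 46.3%. By the same rule the X had 1.91 peaks per site, fewer than each autosome, at 1.99 to 2.70. Single peaks made up 57.5% of the X sites and 49.0 to 58.4% of those on each autosome. The largest group had 10 peaks on the X and 13 to 25 on the autosomes. The X had 229 series peaks against 474 to 613 on each autosome. A fixed gap joins fewer peaks where peaks are sparser, and the values compared here were not adjusted for density.

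Every group of 5 or more peaks is given by position, since these are the places where the X peaks were most concentrated. The group with most peaks lay at 16930080 to 16939585, with 10 peaks in 9506 bp and scores from 1.72 to 39.03. Replicate 1 overlapped 2 of the 10, through 1 peak of 2734 bp over the left end. Replicate 2 overlapped 7 of the 10 and had 8 separate peaks in the span, with scores of at most 377.41. The longest group ran from 1940657 to 1956971, with 9 peaks spread over 16315 bp. Only 19.3% of that span was inside peaks, and its scores stayed between 2.07 and 8.95. Replicate 2 overlapped all 9 peaks and replicate 1 overlapped 0.

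A group of 6 peaks from 2002701 to 2011833 began with a strong peak of 1341 bp, with a score of 36.75, which replicates 1 and 2 both overlapped. Of its other peaks, replicate 1 overlapped 0. The 6 peaks from 4025967 to 4030333 lay nearly end to end, with gaps of 62 to 289 bp and scores of 8.60 to 13.88. At 11785803 to 11789318 a further 6 peaks had scores of 2.72 to 4.33, among the lower ones of the list, whereas a replicate 2 peak there reached 2559.01. Neither of these last groups was overlapped by replicate 1.

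Groups of 5 lay at 109608 to 114084, 9185109 to 9188747 and 15807701 to 15810954. In each, 1 replicate 2 peak with a score of 3100 spanned all 5 series peaks, with widths of 5209, 4150 and 4274 bp. The group at 9185109 was also inside 1 replicate 1 peak of 4762 bp, whose score of 53.39 was near the lowest of that list, 50.3 being its minimum. Its 5 series scores ran from 1.35, the lowest on the X, to 6.71. These groups were thus single broad intervals in a replicate list and chains of narrower peaks, of at most 1503 bp, in the series list. Over the whole X, 29 replicate 2 peaks and 13 replicate 1 peaks contained or touched 2 or more series peaks, with a maximum of 5 in each.

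The strongest sites lay in every part of the chromosome. By series score, 6 of the top 10 lay in the leftmost 25% of the X, 3 in the rightmost 25% and 1 in the middle. Of the top 30, 12 were in the middle (40%), and of the top 50, 19 (38%), against 68 of all 229 (29.7%). Replicate 2 overlapped 10 of these 10 and replicate 1 overlapped 9. At the top, with a score of 56.29, was a 922 bp peak from 142771 to 143692, rank 13 among all 3009. Replicate 1 had called it at 1472 bp with a score of 475.96 and replicate 2 at 877 bp with a score of 3100. It stood alone, with 24821 bp to the next peak on its right.

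The second site, from 2991453 to 2995353, was 3901 bp wide with a score of 50.44, rank 19 in the list. Its replicate scores were 2795.73 and 3100, both near the top of their lists. The third, from 5913153 to 5915930, was the single one of the 10 in the middle of the chromosome. It scored 45.44 with a width of 2778 bp, and replicate scores of 1513.4 and 3100. The longest but one of the empty stretches began just to its right.

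The fourth differed between the replicates. From 16930080 to 16932082 it scored 39.03 over 2003 bp and was rank 16 of 379 in replicate 1, with a score of 2148.8. In replicate 2 the matching peak was 395 bp wide with a score of 78.81, rank 1284 of 1901. The fifth, from 14384575 to 14389954, was broad at 5380 bp with a score of 36.94, and reached 3100 in both replicates. After it came 2002701 to 2004041, with a score of 36.75, and 1882288 to 1888109, of 5822 bp with a score of 35.82 and again 3100 in both replicates.

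The rest of the top 10 were narrower than those above, though wider than the X median of 318 bp. A peak of 462 bp from 3262163 to 3262624 scored 34.05, with replicate scores of 81.64 and 689.47. Another of 728 bp from 2057785 to 2058512 scored 34.04. The tenth, 507 bp from 15481875 to 15482381 with a score of 29.91, was overlapped by replicate 2, with a score of 858.7, and not by replicate 1.

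**Figure D2:**
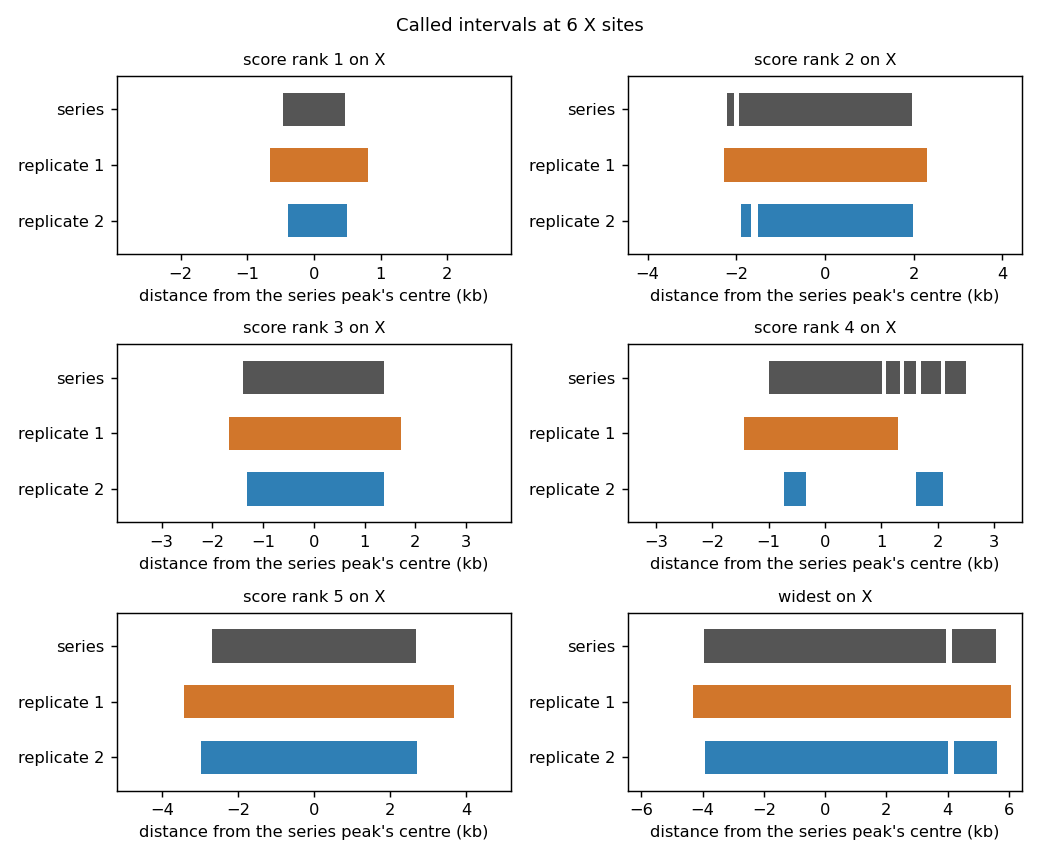
Called intervals of the series list (grey), replicate 1 (orange) and replicate 2 (blue) around the 5 X peaks with the highest series scores and the widest one, drawn to scale by distance in kb from the centre of the series peak. Replicate 1 intervals extend past the series peak on both sides at these 6 peaks, and at the peak of rank 4 replicate 2 has a narrow interval of 395 bp.

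Width and score went together in part, and a few broad sites held much of the covered length. The 229 peaks covered 135144 bp, or 0.763% of the X, and 108 of them were under 300 bp wide. The 10 widest covered 32.9% of that length. Replicate 2 overlapped 10 of these 10 and replicate 1 overlapped 8, and 4 of them were also among the 10 strongest. Across the 229 peaks Spearman's rho between width and score was 0.549. Width and score of a peak come from the same call, so the value is given as a description.

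The widest X peak, 7881 bp from 5045085 to 5052965, scored 24.44. Replicate 1 called it together with its right neighbour as 1 peak of 10381 bp with a score of 3100. Replicate 2 split it into 3 adjoining peaks of 3598, 1329 and 2991 bp. The next widest, 7759 bp from 10361326 to 10369084 with a score of 20.54, was a replicate 2 peak of 8269 bp with a score of 3100, and replicate 1 had none there. The broad peaks starting at 1882288, 14384575 and 2991453 were in both replicates, as described among the strongest.

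A peak of 3313 bp from 11975369 to 11978681 scored 21.79 and was met by 1 replicate 1 peak and 4 replicate 2 peaks. The seventh by width was broad and weak. It measured 3284 bp from 291982 to 295265 with a score of 4.29, rank 138 of the 229, and was not in replicate 1. It closed a chain of 4 series peaks from 289891 that replicate 2 called as 1 peak of 5564 bp with a score of 3100. The other members of the 10 widest were 2778 bp from 5913153, 2296 bp from 11441454 with a score of 27.68, and 2109 bp from 14377635 with a score of 28.92. All 3 were overlapped by both replicates.

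**Figure D3:**
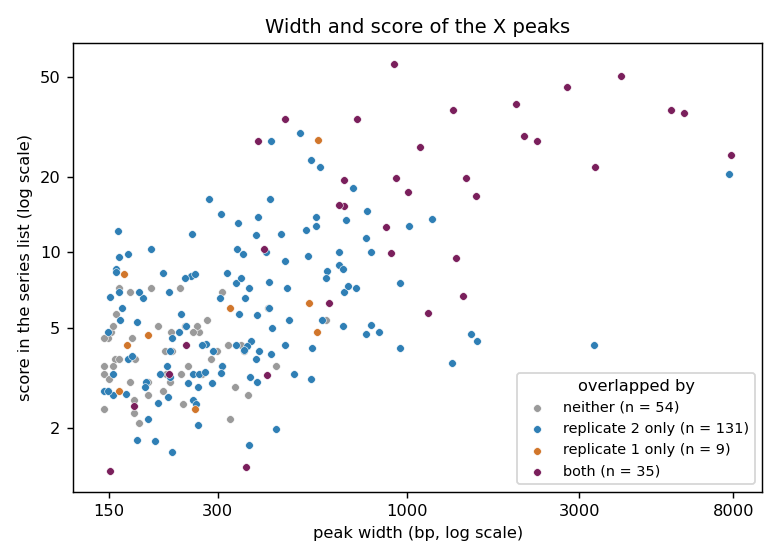
Width in bp and score of each of the 229 X peaks of the series list, both on log scales, coloured by the replicate lists that overlap it. Peaks that neither replicate overlaps (n = 54) are at most 598 bp wide and have scores of at most 7.25, while the 10 widest peaks, from 2109 bp up, are all overlapped by replicate 2.

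Most X peaks were present in replicate 2 and few in replicate 1. Replicate 1 overlapped 44 of the 229 by 1 bp or more, or 19.2% (14.6 to 24.8%), against 21.6% of all series peaks. Replicate 2 overlapped 166, or 72.5% (66.4 to 77.9%), against 36.6% of all series peaks. Both replicates overlapped 35 X peaks, 15.3% (11.2 to 20.5%), against 10.6% of all series peaks. A further 9 were overlapped by replicate 1 only (3.93%, against 11% of all series peaks) and 131 by replicate 2 only (57.2%, against 26% of all series peaks). Neither replicate overlapped 54, or 23.6% (18.5 to 29.5%), against 52.4% of all series peaks. With replicate 1 left aside the share without a replicate peak was 27.5%, and with replicate 2 left aside it was 80.8%.

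The 35 peaks found by both replicates were 936 bp wide in the median, with a median score of 19.5. The 131 of replicate 2 only had medians of 343 bp and 5.41, and the 54 of neither had medians of 215.5 bp and 3.78. Among the 25% of X peaks with the highest scores, 9.60 and above, replicate 2 overlapped 57 of 58 and replicate 1 overlapped 26 of 58. The exception for replicate 2 was the peak from 1503992 to 1504558, with a score of 28.06, which only replicate 1 overlapped, with a peak of 1405 bp and a score of 303.06. Among the 25% with the lowest scores, up to 3.36, replicate 2 overlapped 36 of 57 and replicate 1 overlapped 7 of 57. Between the 2 parts with the lowest scores the shares did not fall further, and their intervals overlapped. In the part above the lowest, with scores of 3.53 to 5.12, replicate 2 overlapped 30 of 57 (39.9 to 65.0%, against 50.2 to 74.5% in the lowest part). Replicate 1 overlapped 4 of 57 there (2.76 to 16.7%, against 6.08 to 23.2% in the lowest part). Each of the 7 in the lowest part lay under a replicate 1 peak that also overlapped a series peak with a higher score. The peaks found by both lay in the middle of the X in 18 of 35 cases, or 51.4% (35.6 to 67.0%), and those of neither in 12 of 54, or 22.2% (13.2 to 34.9%). For all X peaks the count was 68 of 229 (29.7%), for those of replicate 2 only 33 of 131 (25.2%), and for those of replicate 1 only 5 of 9 (55.6%). Of the 18, 5 came from the group at 9185109 to 9188747 and 3 from that at 11975046 to 11979885. Each of these groups was overlapped by 1 replicate 1 peak. The 18 thus stand for fewer separate intervals of replicate 1, whereas the counting interval treats them as independent.

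**Figure D4:**
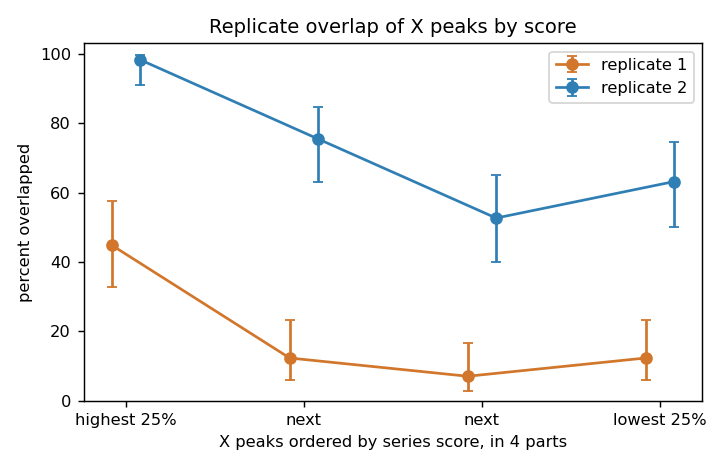
Percent of the X peaks that each replicate list overlaps, in 4 parts ordered by series score from highest to lowest (58, 57, 57 and 57 peaks), with 95% Wilson intervals. From the highest to the lowest part, replicate 2 covers 98.3%, 75.4%, 52.6% and 63.2%, and replicate 1 covers 44.8%, 12.3%, 7.02% and 12.3%. The third part has the smallest share for both, with intervals that overlap those of the part with the lowest scores.

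Seen from the replicates, all 27 X peaks of replicate 1 were overlapped by the series list, against 99.7% of all replicate 1 peaks. Replicate 2 overlapped 22 of the 27, or 81.5% (63.3 to 91.8%), against 64.4% of all replicate 1 peaks. The 5 it did not overlap started at 223972, 1503616, 4668788, 8602237 and 12666204, with widths of 1284 to 1525 bp and scores of 72.08 to 303.06. Replicate 1 peaks were the wider intervals. They reached past the outermost series peak at 51 of their 54 edges, with a median of 365.5 bp per edge. Across the 27, Spearman's rho between the replicate 1 score and the highest series score inside was 0.742. Across the 166 series peaks that replicate 2 overlapped, rho between the series score and the replicate 2 score was 0.287. Here each series peak counted by itself, so the peaks of a chain shared 1 replicate 2 score. The 5 peaks from 15807701, with scores of 4.04 to 8.36, were all paired with 3100. The values of 0.742 and 0.287 are thus unlike measures and do not rank the replicates. Across the 22 replicate 1 peaks also in replicate 2, rho between the replicate scores was 0.379, with several scores tied at 3100.

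Of the 238 X peaks of replicate 2, the series list overlapped 134, or 56.3% (49.95 to 62.45%), against 58.3% of all replicate 2 peaks. Replicate 1 overlapped 41 of the 238 (17.2%), against 21.4% of all replicate 2 peaks. The 104 that the series list did not hold scored 75.7 in the median and were 316 bp wide in the median, and 70 of them (67.3%) lay left of the chromosome's midpoint, against 136 of all 238 (57.1%). Their distance to the nearest series peak had a median of 15239 bp, and 24 were within 1 kb of one. The strongest of them ran from 1636093 to 1638633, with 2541 bp and a score of 795.07, at 4125 bp from a series peak. After it came 7077432 to 7079248, with a score of 665.73, inside the third of the empty stretches by length. The next had scores of 544.01 at 1195215 to 1195569, 409.01 at 12275972 to 12276431 and 382.58 at 53321 to 54456. None of these 5 was in replicate 1.

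The top of replicate 2 was looked up in the other lists. On the X, 15 replicate 2 peaks had a score of 3100 or more, 14 of them tied at 3100, with a median width of 3598 bp. All 15 were overlapped by the series list. Replicate 1 overlapped 9 of the 15, against 68 of the 102 such peaks over the whole replicate 2 list (66.7%). For the 9 that replicate 1 also overlapped, the median of the highest series score was 35.8, and for the 6 that it did not overlap it was 11.1. These 6 started at 109140, 289823, 1752202, 4026654, 10360920 and 15807012. Of the 6, 5 were chains of 3 to 5 series peaks, and the one at 10360920 was a single series peak.

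The X was then set beside each autosome. The share of series peaks overlapped by replicate 2, 72.5% on the X, was 27.5% on chromosome II, 28.3% on III, 34.4% on I, 36.5% on V and 40.6% on IV. The relative length of the lists also differed. Replicate 2 had 238 peaks on the X, against 229 of the series list. Each autosome had 258 to 439 replicate 2 peaks, against 474 to 613 of the series list. Of replicate 2's own peaks, the series list overlapped 56.3% on the X and 55.8 to 63.4% on each autosome. The part of list length in the shares was not tested. The share overlapped by neither, 23.6% on the X, ran from 51.7 to 59.1% on the autosomes. For replicate 1 the X, at 19.2%, was within the autosomal range of 17.1 to 30.2%. With 1 X and 5 autosomes an exact permutation of the chromosomes cannot give a p below 0.167, so these differences are given without a test.

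The shares were next split by position along each chromosome. In the middle 50% of the length, replicate 2 overlapped 75.0% of X peaks (63.6 to 83.8%) and 70.1% of autosomal peaks (65.8 to 74.1%). Each autosome lay between 61.4 and 80.0% there, a range that includes the X. In the outer 50%, replicate 2 overlapped 71.4% of X peaks (64.0 to 77.8%) and 26.2% of autosomal peaks (24.5 to 28.1%), with the autosomes between 22.2 and 29.1%. Outer peaks overlapped by neither replicate made up 26.1% on the X (19.9 to 33.4%) and 61.0% on the autosomes (59.0 to 62.9%). For replicate 1 the X had 33.8% of its middle peaks overlapped (23.7 to 45.7%) and 13.0% of its outer ones (8.69 to 19.1%), against 23.9 and 21.4% on the autosomes. In the outer part the X value was next to that of chromosome IV, 13.2%, and the other autosomes ran from 18.9 to 32.2%.

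Widths and scores were compared in the same way, again without a test. The median X peak was 318 bp wide, against 234 to 245 bp on the autosomes. In the outer part the medians were 308 bp on the X and 216 to 242.5 bp on the autosomes, whereas in the middle the X, at 319.5 bp, was within the autosomal range of 233.5 to 387 bp. Among the 300 highest scores of the series list were 38 X peaks, or 16.6% of those on the X, against 5.53 to 12.7% of the peaks of each autosome. Outer peaks had a median score of 5.12 on the X and 4.56 on the autosomes together. By chromosome it was 5.025 on II, near the X, and 4.56 on each other autosome. The part of this gap in the overlap shares was not tested.

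**Figure D5:**
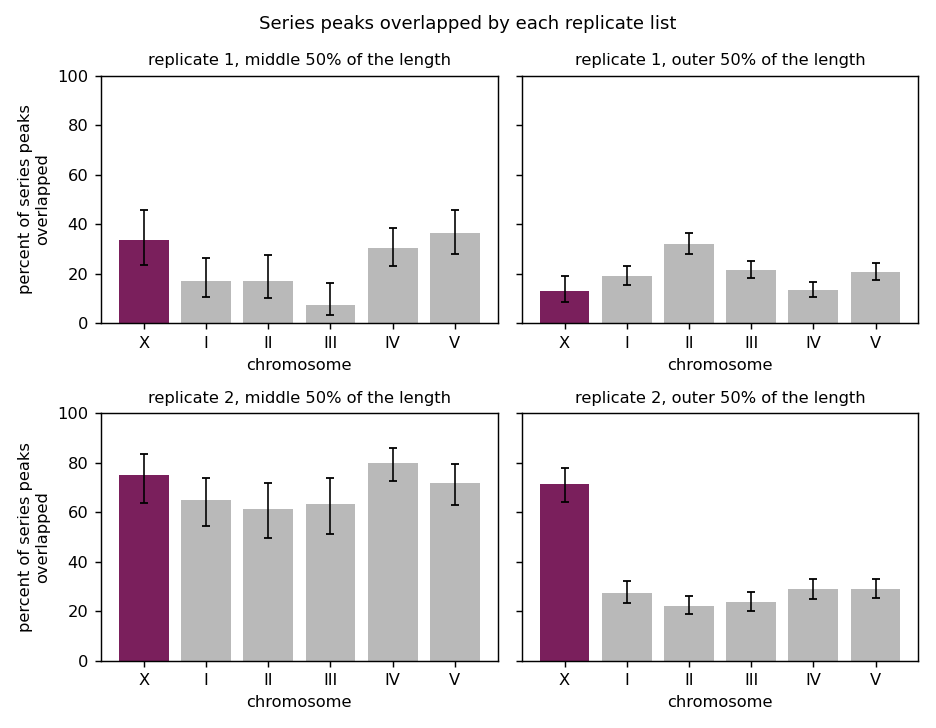
Percent of series peaks that replicate 1 (top) or replicate 2 (bottom) overlaps on the X (purple) and each autosome (grey), in the middle 50% (left) and outer 50% (right) of the chromosome, with 95% Wilson intervals. In the outer part replicate 2 overlaps 71.4% on the X and 22.2 to 29.1% on the autosomes, while in the middle the X, at 75.0%, is within the autosomal range.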

How the data were processed

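The data were peak lists of 2 ASH-2 ChIP samples and of the series as a whole, without values for the input samples. Each peak's score was deposited by the authors, and is used here only within its own list. Per the file headers the build is WormBase WS220, and the lists' source columns name MACS (replicate lists) and MACS v2 (series list). BWA and ce10 appear in the submitters' processing notes. The sources used here state no peak-calling parameters, and the depth per sample is unknown.

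All rows of the series list on the X were taken. The members, lists and comparisons were chosen with earlier results of these data known. Overlap meant 1 bp or more, positions were counted by peak midpoint, neighbours with gaps of 5 kb or less were joined, and density used bins of 1 Mb. The interval of the density ratio was taken from the Wilson interval of the share of peaks in the middle. The last base covered in any list served as the end of each autosome. The sites named were the 10 highest scores, the 10 widest, groups of 5 or more peaks, the 5 longest empty stretches, the first and last peaks, and the 5 highest replicate peaks that the series list lacks; other sites were chosen after their values were seen. Peaks were not assigned to genes, since the gene table at hand follows WBcel235. Functions were tested on simulated data, with 10 of 10 checks as made. The software was Matplotlib 3.10.9, SciPy 1.17.1, NumPy 2.4.6 and pandas 2.3.3 under Python 3.11.15.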

Additional observations from a re-analysis of the deposited data

How the results depend on the processing

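Shares and the density ratio were compared with the 95% counting interval of the value reported, and the number of groups and the longest empty stretch with 1.5 times it. By these limits 27 of 37 alternative values stayed within and 10 moved beyond. No density ratio among these alternatives changed direction, but series peaks overlapped by replicate 1 were not among them. Settings that were not planned were the middle 50% of the X, the outer 25% at each end, and the X without its fullest 1 Mb. Of these, only the middle 50% moved beyond the limits. Keeping the 50% of X peaks with the higher scores gave 28.7% overlapped by replicate 1, 87.0% by replicate 2, 25.2% by both and 9.57% by neither, 8 groups of 3 or more peaks in place of 24, and a longest empty stretch of 1920155 bp in place of 1151335 bp. This list has 115 peaks in place of 229. The share with no replicate peak ran from 27.5 to 80.8% when either replicate was left out, and was 17.6% in the middle of the X, a setting added after seeing the data. The ratio of middle to outer density was 0.639 in base pairs and ran from 0.460 to 0.688 when a single replicate list was used; the causes were not tested. No paired analysis was possible because a replicate has a single peak list and input values were not analysed here. Depth is unknown, so the shorter list of replicate 1 cannot be set against its reads.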
